A study of Danio rerio with 6 samples.

Results

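The collagen genes of the zebrafish kidney marrow were taken as every gene of the count table whose name starts, in upper or lower case, with col, a type number, the letter a and a chain number. This gave 57 of the 32057 genes in the table, which were divided by chain type into 15 fibrillar collagens, 6 basement membrane collagens (all of type IV) and 36 other collagens. RNA of whole kidney marrow (WKM) cells was sequenced from wild-type fish of the AB strain (WT) and from the double transgenic line Tg(drl:hoxa9;hsp70:meis1) (Tg), with 3 libraries for each genotype and the cells of 3 kidneys pooled in each library. In Tg, hoxa9 was placed behind the draculin (drl) element, which the paper describes as active in every lineage of the lateral plate mesoderm, blood cells included. The meis1 gene was placed behind the heat-inducible hsp70 promoter, which is not limited to blood cells either. The age was 5 months by the sample labels and the methods and 3 months by the text on the experiment, and the heat shock schedule of these particular fish, WT included, is not stated. Neither labels nor methods say how the 3 pools of a genotype were spread over clutches, days or library batches, so the p-values below measure the spread between these libraries.

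Collagens are secreted proteins whose chains wind around each other in a helix and then assemble outside the cell. Fibrillar collagens, such as types I, III and V, form the fibres of connective tissue and are made mainly by fibroblasts and bone-forming cells, whereas type IV collagen forms the sheet-like network of basement membranes under epithelia and endothelia. The remaining types coat fibrils, form beaded filaments, anchor basement membranes or span the cell membrane. In fish, blood formation takes place in the spaces between the kidney tubules, so stromal cells, vessels and tubular epithelium lie next to the blood cells that are harvested.

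The WT libraries had totals between 53620374 and 64888212 counts and the Tg libraries between 50767535 and 64055374, and a count of 0 allowed a level of up to 0.0457 to 0.0606 CPM, the unit in which a gene's count is scaled to the total of its library (counting error only). The hoxa9a row held at most 0.960 CPM in WT compared with 64.5 to 101 CPM in Tg, and the MEIS1 row 21.4 to 26.7 CPM in WT against 52.5 to 77.2 CPM in Tg, so the libraries matched their labels. Blood cell markers were present in every library, although 1 of their 11 rows was too low for the test and gata1b had a mean of 1.07 CPM. The lysozyme gene of myeloid cells, lyz, stood at 9152 CPM on average in WT and 12460 CPM in Tg. Of the 10 blood cell rows tested, 5 were higher and 5 lower in Tg in the estimate. Markers of stroma were also present in every library, with 12 of 13 rows tested and a summed level of 552 to 1617 CPM in WT compared with 1046 to 1168 CPM in Tg, most of it CXCL12, a chemokine of marrow stroma. Of the bone and cartilage markers, RUNX2 had no counts and bglap almost none, but runx2b was detected in both genotypes (mean of 1.09 CPM in Tg). So was spp1 (1.25 CPM in WT and 1.66 CPM in Tg). SP7, a factor of bone-forming cells, had no counts in WT and 6, 38 and 16 counts in Tg, a mean of 0.383 CPM. It was too low for the main test (DESeq2 adjusted p = 0.0272). Of the 6 bone and cartilage rows tested, 3 were higher and 3 lower in Tg in the estimate. The material thus held stromal transcripts, but no measurement here assigns a collagen transcript to a cell type, and in bulk RNA fewer cells of a type and less RNA per cell cannot be told apart.

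Most collagen genes were measured at a lower level in Tg than in WT, but none passed the test over all genes. Of the 57, 43 had enough counts to be tested and 14 did not, the latter with 0 to 51 counts over all libraries. By edgeR's quasi-likelihood test at a false discovery rate (FDR) under 0.05, 0 collagens were higher in Tg (0.224% of all 20123 genes tested) and 0 were lower (0.373% of all genes). At an unadjusted p under 0.05 the count was 1 of 43 higher (2.33%, beside 9.07% of all genes) and 7 of 43 lower (16.3%, beside 10.8% of all genes). DESeq2, the tool named in the study's methods, gave 0 higher (2.95% of its 21878 genes) and 4 lower (6.52%) among 50 collagens, namely col4a5, col4a6, col11a1b and COL14A1. The edgeR exact test gave 2 lower (3.37% of all genes) and limma-voom 0 (0.124%).

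The shift to lower values was spread over the classes. The log2 fold change of Tg against WT was negative for 38 of the 43 collagens, compared with 49.1% of all genes. Of these 43, 15 had a mean under 1 CPM. Some chains also varied together across the libraries, so the signs are not separate observations. The median was −0.78 over all collagens, −0.68 over the basement membrane chains (6 of 6 negative), −0.45 over the fibrillar chains (11 of 12) and −0.96 over the other types (21 of 25), beside 0.01 over all genes tested. With single libraries left out, the count of negative values ran from 36 of 47 without Tg replicate 2 to 43 of 46 without Tg replicate 1. Without WT replicate 3 the fibrillar median was −0.10, and without Tg replicate 1 it was −1.15. All 3 Tg libraries lay above all 3 WT libraries for 1 collagen tested (14.0% of all genes) and below them for 6 (14.1%), so 6 of 43 was a share like that of the whole table.

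**Figure D1:**
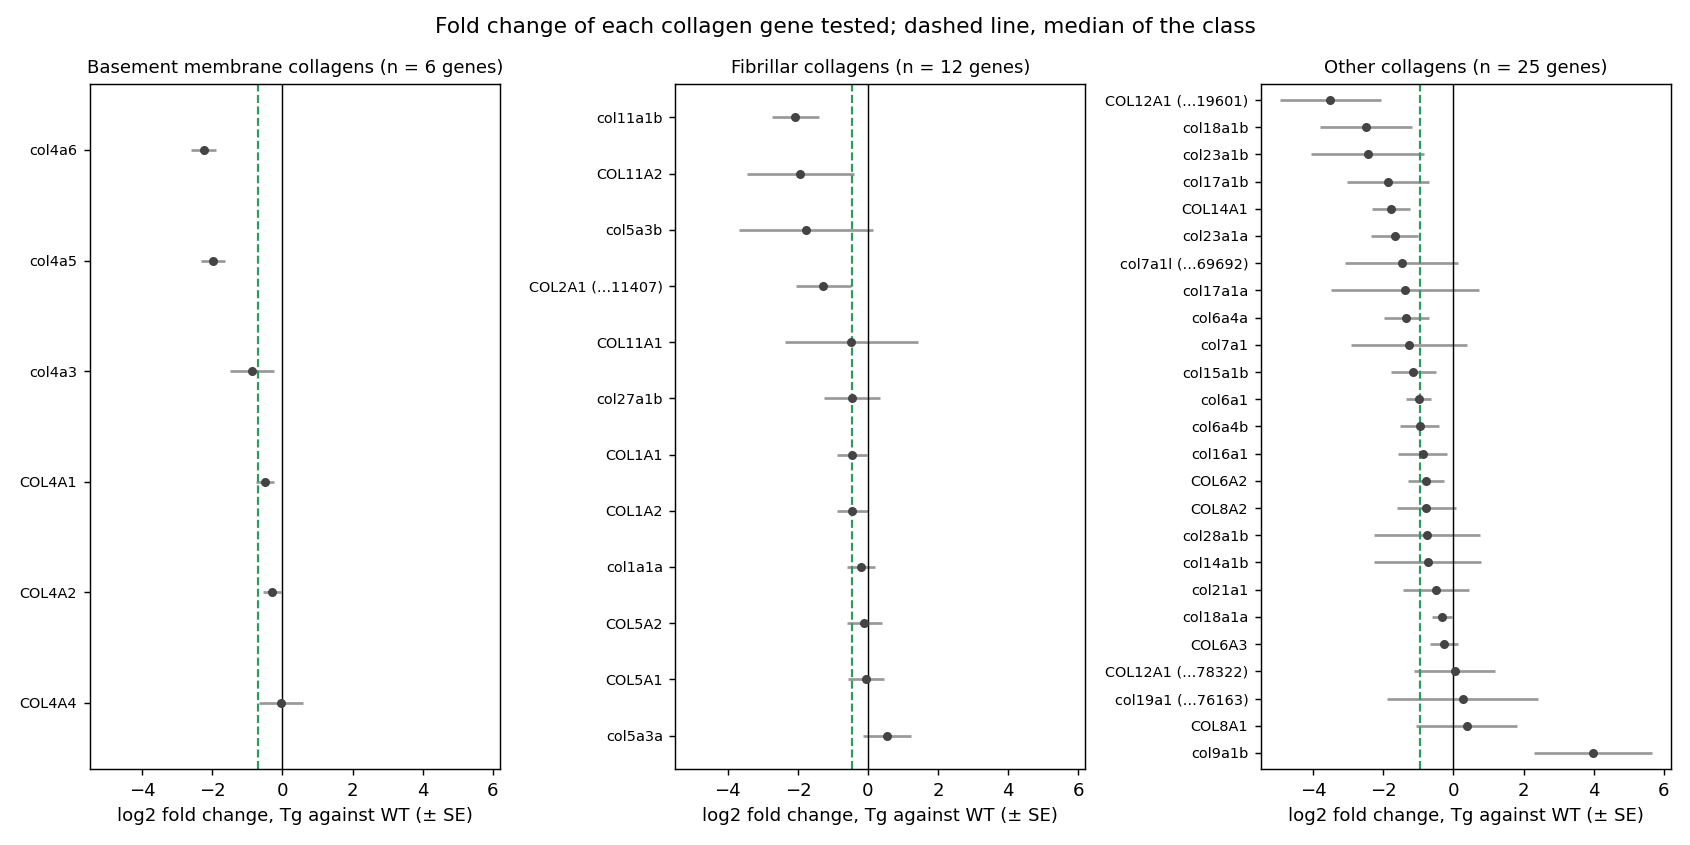
The log2 fold change of Tg against WT (x axis) is plotted for each of the 43 collagen genes tested, in 3 panels by class, with points for the estimate, bars for 1 standard error and a dashed line at the median of the class. Nearly all points lie left of 0, with the medians at −0.68, −0.45 and −0.96, and the short bars of col4a6 and col4a5 set them apart from genes with changes of similar size and wider bars.

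Among the basement membrane collagens, col4a5 and col4a6 had the clearest difference of all collagens. These chains form the type IV network of certain epithelial and smooth muscle basement membranes. For col4a6 (ENSDARG00000052061), the level was 25.1, 15.1 and 11.5 CPM in the WT libraries and 3.63, 4.37 and 2.89 CPM in Tg. The groups did not overlap, and the lowest WT library was above the highest Tg library by more than the whole range of Tg. The mean of 17.2 ± 7.05 CPM in WT (SD, n = 3) was 4.74 times that of 3.63 ± 0.739 CPM in Tg, with a log2 fold change of −2.25 (SE 0.35) and an FDR of 0.0501, just outside the threshold. The FDR was 0.0494 with scaling by library size only, 0.0482 with upper quartile scaling and 0.0380 without the filter on low counts, and DESeq2 gave an adjusted p of 2.41e-07, but the FDR was 0.0712 to 0.202 as single libraries were left out. Without Tg replicate 2 or Tg replicate 3, 0 genes of the whole table passed, so in those fits this is not particular to col4a6.

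For col4a5 (ENSDARG00000052063), the level was 12.4, 9.77 and 11.0 CPM in WT compared with 4.07, 2.34 and 1.92 CPM in Tg. Here too every WT library was above every Tg library, and the WT libraries were close to each other. The mean was 11.1 ± 1.33 CPM in WT against 2.78 ± 1.14 CPM in Tg, a log2 fold change of −1.99 (SE 0.34) with an FDR of 0.0661. The DESeq2 adjusted p was 8.45e-06. The FDR became 0.0404 without Tg replicate 1 and was 0.110 to 0.207 when any of the other 5 libraries was left out. In the fits without Tg replicate 2 or Tg replicate 3, 0 genes of the whole table passed.

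The other type IV chains differed less. COL4A1 and COL4A2 (ENSDARG00000055009 and ENSDARG00000104110) encode the chains found in nearly all basement membranes, vessels included. COL4A1 stood at 26.1, 22.3 and 36.3 CPM in WT compared with 23.6, 15.0 and 21.3 CPM in Tg, and COL4A2 at 18.8, 19.9 and 29.2 CPM in WT against 19.7, 13.7 and 21.8 CPM in Tg. Both overlapped between the groups, with log2 fold changes of −0.50 (SE 0.25, FDR = 0.316) and −0.30 (SE 0.25, FDR = 0.559). The chains col4a3 and COL4A4, which in mammals belong to the basement membrane of the glomerulus, were measured at 0.970 to 6.15 CPM and at a mean of 1.27 CPM in WT compared with 1.23 CPM in Tg, with log2 fold changes of −0.87 (SE 0.63) and −0.04. Summed over the 6 chains, the level was 90.4, 69.7 and 91.6 CPM in WT against 54.9, 37.1 and 51.8 CPM in Tg, without overlap. Only 2 of the 6 chains, col4a5 and col4a6, were each without overlap (33.3%, beside 14.1% of all genes). The sum is therefore not a trait of every chain. The Tg mean of the sum was 0.571 of the WT mean, and 0.595 without WT replicate 1.

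**Figure D2:**
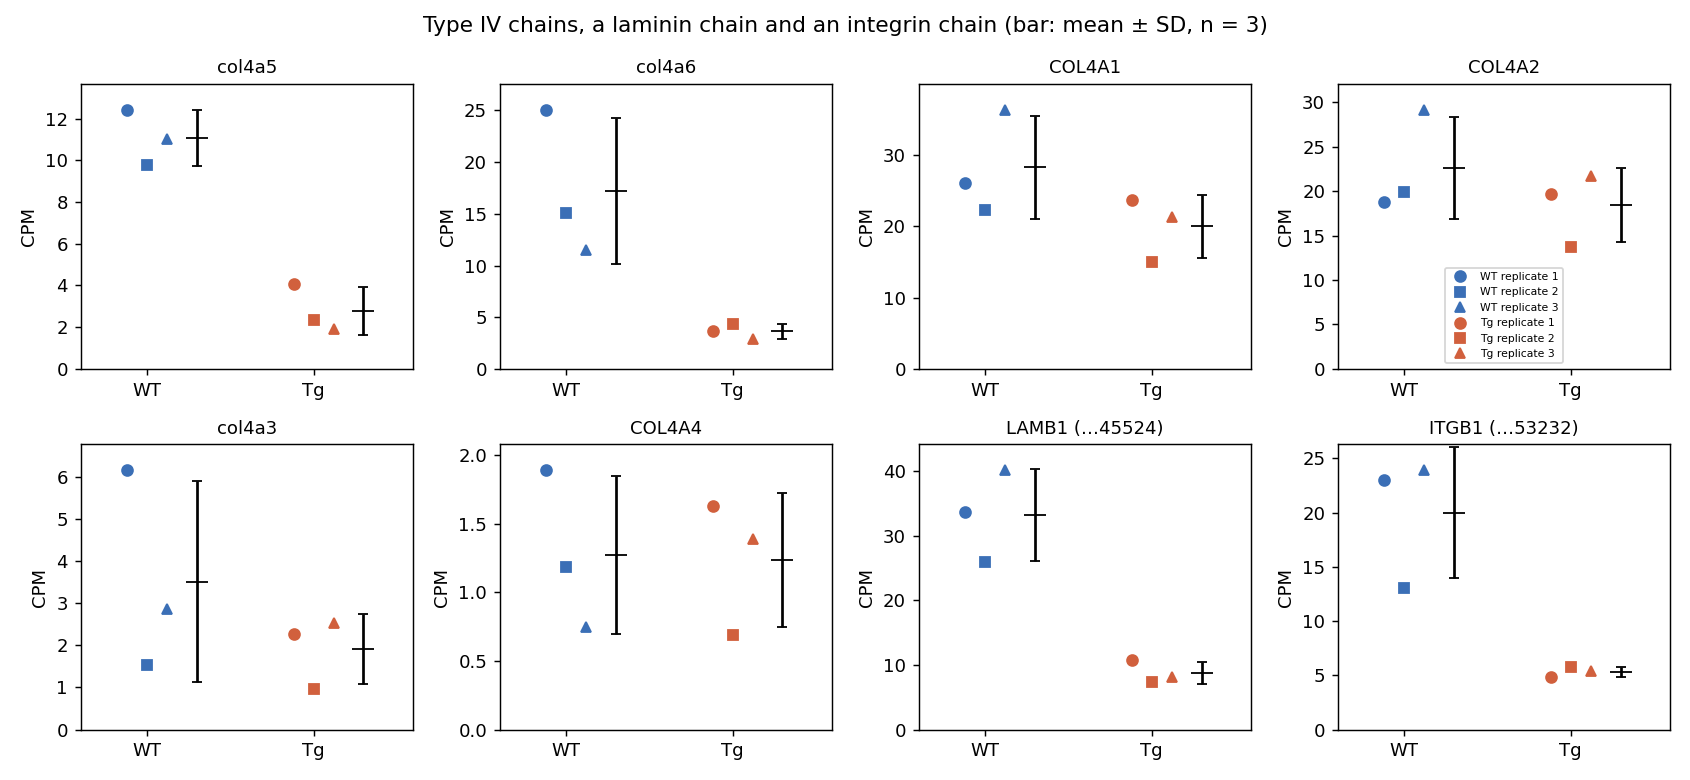
The level in CPM (y axis, from 0 in each panel) is shown for the 6 type IV chains, the laminin chain LAMB1 and the integrin chain ITGB1, with 1 symbol for each library and the mean ± SD (n = 3) beside each group. The groups are apart for col4a5, col4a6, LAMB1 and ITGB1, while those of COL4A1, COL4A2, col4a3 and COL4A4 overlap.

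Genes for type IV chains lie in neighbouring pairs, and the members of a pair were followed across the libraries. In the RefSeq table of the zebrafish genome, col4a1 is next to col4a2, col4a3 to col4a4 and col4a5 to col4a6. The CPM ratio of COL4A1 to COL4A2 stayed between 0.979 and 1.39 over the 6 libraries, a 1.42-fold span, whereas their levels spanned 2.42-fold and 2.12-fold. The ratio of col4a5 to col4a6 lay between 0.496 and 1.12, a 2.26-fold span, against spans of 6.48-fold and 8.69-fold in their levels. Those level spans include the difference between the genotypes, and within a genotype the ratio was not steadier than the levels. Within WT it ran from 0.496 to 0.960, with col4a5 at 9.77 to 12.4 CPM and col4a6 at 11.5 to 25.1 CPM. Within Tg it ran from 0.537 to 1.12, with col4a5 at 1.92 to 4.07 CPM and col4a6 at 2.89 to 4.37 CPM. The ratio of col4a3 to COL4A4 spanned 2.96-fold over the 6 libraries, against 6.34-fold for col4a3 and 2.75-fold for COL4A4. These ratios are not corrected for gene length and are read only for their steadiness.

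Among the fibrillar collagens, the type I chains of bone, skin and connective tissue overlapped between WT and Tg. COL1A1 (ENSDARG00000035809) stood at 34.8, 79.0 and 106 CPM in WT compared with 71.5, 36.1 and 53.7 CPM in Tg. COL1A2 (ENSDARG00000020007) stood at 26.9, 45.2 and 81.6 CPM in WT against 49.2, 22.0 and 41.6 CPM in Tg, and col1a1a (ENSDARG00000012405), a further alpha 1 chain gene, at 27.9, 49.5 and 72.8 CPM in WT compared with 60.4, 25.9 and 44.0 CPM in Tg. All 3 genes had their highest level in WT replicate 3 and their lowest in WT replicate 1 or Tg replicate 2, so the spread within a genotype was as wide as that between genotypes. The log2 fold changes were −0.45 (SE 0.42, FDR = 0.604), −0.45 (SE 0.44, FDR = 0.630) and −0.20 (SE 0.41, FDR = 0.832). COL1A2 and col1a1a turned positive, at 0.04 and 0.15, without WT replicate 3. The ratio of COL1A1 to COL1A2 spanned only 1.36-fold over the libraries and that of col1a1a to COL1A2 1.38-fold, against 2.81-fold to 3.72-fold for the levels, so the type I chains varied together.

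The type V chains, which take part in the start of type I fibrils, were close between the genotypes. COL5A2 stood at 8.38, 15.8 and 23.0 CPM in WT against 23.4, 7.70 and 12.8 CPM in Tg, and COL5A1 at 6.22, 11.3 and 12.9 CPM in WT compared with 15.5, 3.70 and 9.91 CPM in Tg. Their log2 fold changes were −0.10 (SE 0.49) and −0.06 (SE 0.52), and both changed sign when WT replicate 3 or Tg replicate 2 was left out. With standard errors of this size, a moderate change in either direction would not have been detected.

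The fibrillar chains best known from cartilage had means under 5 CPM over the 6 libraries and were lower in Tg in the point estimate. The chain with the strongest difference of the class was col11a1b (ENSDARG00000009014), a type XI chain, with 16.2, 4.97 and 2.79 CPM in WT against 1.39, 1.74 and 2.59 CPM in Tg. The groups did not overlap, although WT replicate 3 was barely above Tg replicate 3 and WT replicate 1 was far above all others. Its log2 fold change was −2.07 (SE 0.67, FDR = 0.166; DESeq2 adjusted p = 0.0191) and −1.02 without WT replicate 1. COL2A1 (ENSDARG00000011407), a gene for the main cartilage collagen, stood at 0.708, 0.843 and 1.23 CPM in WT compared with 0.487, 0.162 and 0.501 CPM in Tg, again without overlap (−1.27, SE 0.78, FDR = 0.422). The other row of that name (ENSDARG00000069093) had 16, 8 and 27 counts in WT and none in any Tg library, a level at least 5.06-fold lower in Tg against the mean limit of 3 counts per library, and was too low for the test. COL11A2 was higher in WT replicates 2 and 3 (0.914 and 0.747 CPM) than in WT replicate 1 (0.0726 CPM) and the Tg libraries (0 to 0.317 CPM), with a log2 fold change of −1.93 (SE 1.53). The type XI row COL11A1 (ENSDARG00000026165) overlapped between the groups (−0.47, SE 1.89). Of the 12 fibrillar chains tested, col5a3a had a positive estimate (0.54, FDR = 0.715), and so had the untested col5a2b by DESeq2 (1.14, adjusted p = 0.897).

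**Figure D3:**
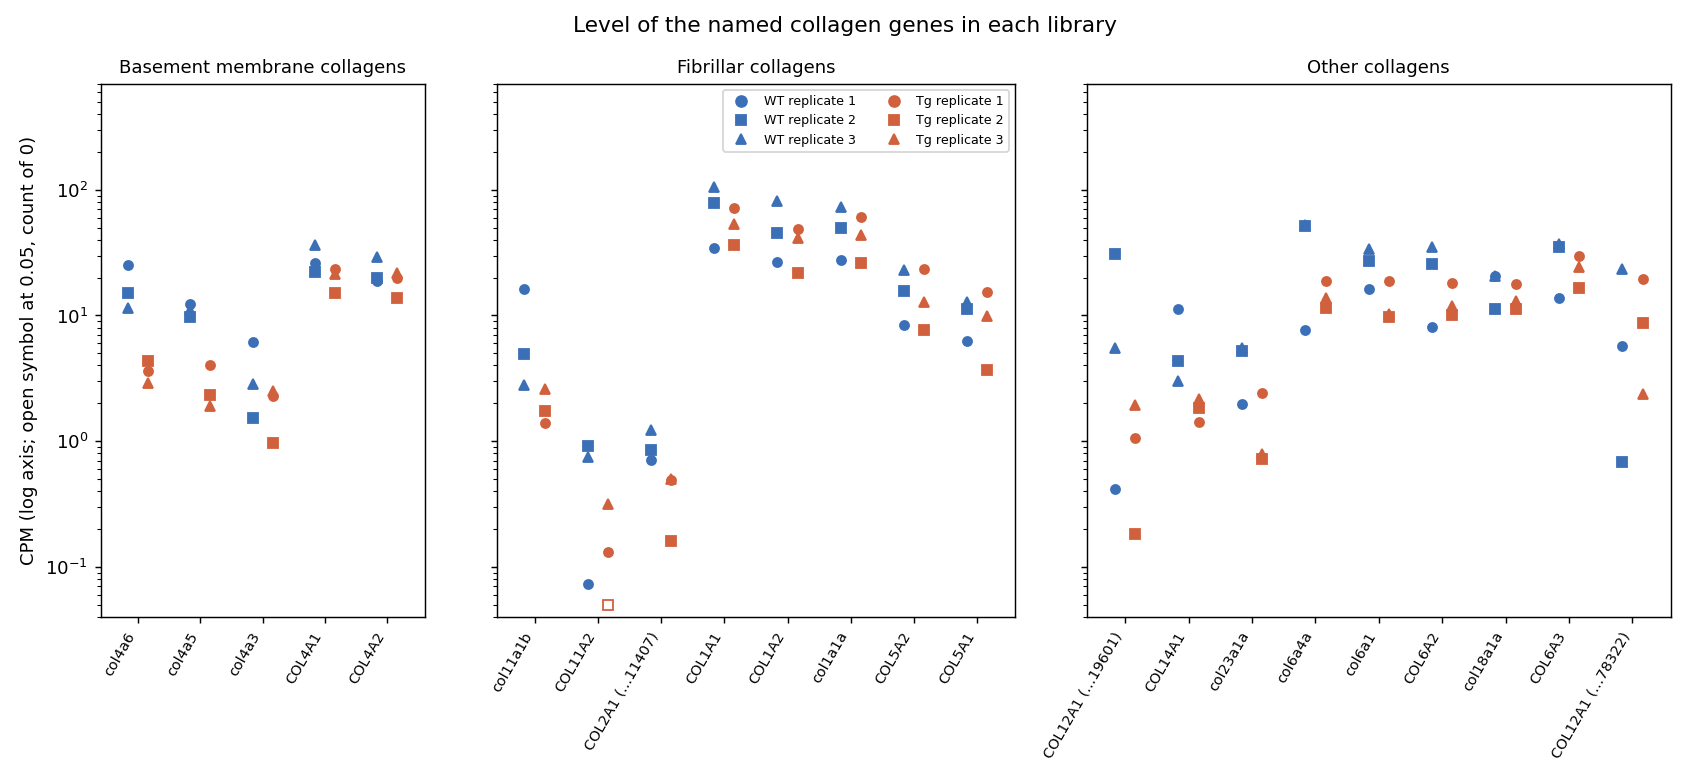
The CPM of each named collagen gene (log axis) is plotted by library, with WT in blue and Tg in orange, a symbol shape for each replicate number and an open symbol for a count of 0. WT replicate 1 (blue circles) is low for the type I, V and VI chains and high for col4a6, col11a1b and COL14A1, so the genes fall into more than 1 pattern across the WT libraries.

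Among the other collagens, the type VI chains, which form beaded filaments around cells and are typical of fibroblasts, had high values in WT replicates 2 and 3. The gene col6a1 (ENSDARG00000074908) stood at 16.3, 27.0 and 33.7 CPM in WT against 18.7, 9.74 and 10.3 CPM in Tg, and COL6A2 at 8.09, 25.9 and 35.0 CPM in WT compared with 18.2, 10.1 and 11.9 CPM in Tg. For both, WT replicates 2 and 3 were above all Tg libraries, while WT replicate 1 fell among them for col6a1 and below them for COL6A2. The log2 fold change of col6a1 was −0.99 (SE 0.35, FDR = 0.191) and that of COL6A2 −0.78 (SE 0.51, FDR = 0.445). The distance between WT replicate 1 and the other WT libraries was widest in col6a4a (ENSDARG00000079752), with 7.73, 51.3 and 52.9 CPM in WT against 18.8, 11.6 and 13.9 CPM in Tg. Its log2 fold change was −1.34 (SE 0.64, FDR = 0.298), and it was −1.82 with an FDR of 0.0481 without WT replicate 1. COL6A3, at 13.8, 34.9 and 37.2 CPM in WT compared with 29.9, 16.7 and 24.5 CPM in Tg, differed least (−0.27, SE 0.39). The sum over the 5 type VI rows was 48.1, 145 and 165 CPM in WT against 89.5, 49.5 and 62.3 CPM in Tg.

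Of the fibril-associated collagens, COL14A1 (ENSDARG00000005762), which binds to the surface of type I fibrils, stood at 11.2, 4.36 and 3.00 CPM in WT compared with 1.42, 1.82 and 2.15 CPM in Tg. The groups did not overlap, and the library order was that of col11a1b, with WT replicate 1 on top. Its log2 fold change of −1.78 (SE 0.54, FDR = 0.149; DESeq2 adjusted p = 0.0216) became −1.03 without that library. The symbol COL12A1 is carried by 2 rows that behaved differently. The first (ENSDARG00000019601) stood at 0.417, 31.0 and 5.53 CPM in WT against 1.07, 0.182 and 1.95 CPM in Tg, so that its log2 fold change of −3.52 (SE 1.44, FDR = 0.239) rested mainly on WT replicate 2 and was −1.48 without it. The other (ENSDARG00000078322) stood at 5.68, 0.681 and 23.5 CPM in WT compared with 19.5, 8.73 and 2.37 CPM in Tg, with a log2 fold change of 0.03 (SE 1.15) and values from −0.85 to 1.65 as single libraries were left out. Whether reads were divided between these 2 rows was not tested, so their separate values are uncertain. Their sum was 6.10, 31.7 and 29.1 CPM in WT against 20.6, 8.91 and 4.32 CPM in Tg.

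The transmembrane collagen col23a1a (ENSDARG00000095339) stood at 1.96, 5.18 and 5.50 CPM in WT compared with 2.42, 0.728 and 0.784 CPM in Tg, with a log2 fold change of −1.68 (SE 0.66, FDR = 0.224). Only Tg replicate 1 overlapped with WT, and only with WT replicate 1. Summed over the 4 transmembrane rows, types XVII and XXIII, the level was 3.92, 7.05 and 6.02 CPM in WT against 2.55, 1.37 and 1.07 CPM in Tg. The Tg mean was 0.294 of the WT mean. Apart from the basement membrane chains, this was the only chain type whose sums did not overlap. Most of it was col23a1a, with 4.21 of a mean of 5.66 CPM in WT and 1.31 of 1.66 CPM in Tg. The multiplexin col18a1a, whose product sits in vascular and epithelial basement membranes, was nearly level at 20.5, 11.3 and 20.4 CPM in WT compared with 17.7, 11.2 and 13.1 CPM in Tg (−0.32, SE 0.29, FDR = 0.600). Its copy col18a1b, chosen after its values were seen because its groups did not overlap, was at 0.807 to 1.45 CPM in WT against 0 to 0.451 CPM in Tg (−2.50, SE 1.32, FDR = 0.347).

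The sole collagen with all Tg libraries above all WT libraries was col9a1b (ENSDARG00000031483), a chain of the fibril-associated type IX collagen of cartilage, also named after its values were seen. It had 0, 12 and 0 counts in WT and 33, 85 and 67 counts in Tg, with a log2 fold change of 3.98 (SE 1.68, unadjusted p = 0.0494, FDR = 0.250), an estimate that depends on how counts of 0 are handled. The other type IX chains, COL9A1, COL9A2 and col9a3, were too low for the test, and so were both rows of COL10A1, the collagen of calcifying cartilage. Of the 14 untested collagens, the highest mean was 0.147 CPM, and 1 row, a copy of col7a1l (ENSDARG00000093135), had no count. The 21 tested collagens not named by the rule on level and p-value had FDR values of 0.250 to 0.978.

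The libraries did not order the collagens by genotype alone. Over the 43 tested collagens, Tg replicate 2 was the lowest library for 22 and WT replicate 1 for 12, while WT replicate 3 was the highest for 17. Summed over all 57 rows, the level was 311, 502 and 644 CPM in WT compared with 428, 216 and 314 CPM in Tg, so that Tg replicate 1 was above WT replicate 1. The Tg mean was 0.658 of the WT mean, and 0.557 without WT replicate 1. Leaving out WT replicate 3 or Tg replicate 2 instead brought this ratio to 0.785 or 0.764. The fibrillar sum stood at 124, 213 and 306 CPM in WT against 226, 99.2 and 171 CPM in Tg, so that Tg replicate 1 was above WT replicates 1 and 2.

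Markers of other kidney cells differed between the libraries as well. The 22 kidney tubule rows summed to 5528, 2350 and 2758 CPM in WT compared with 2081, 2410 and 2122 CPM in Tg. Of these 21 were tested and 18 were lower in Tg in the estimate, with a median log2 fold change of −1.14. SLC12A3, a salt transporter of the distal tubule, passed the quasi-likelihood test (−1.48, FDR = 0.0418). DESeq2 called 0 of 22 rows higher (beside 2.95% of all genes) and 11 lower (50.0%, beside 6.52%). All 3 Tg libraries lay below all 3 WT libraries for 13 of the 21 (61.9%, beside 14.1% of all genes) and above them for 1 (beside 14.0%). WT replicate 1 held the most tubule transcripts and the fewest of the stroma (552 CPM against 1346 and 1617 CPM in the other WT libraries). It was also the WT library with the most col4a6, col11a1b and COL14A1 and the fewest type I, V and VI transcripts. Without WT replicate 1 the Tg mean of the tubule sum was 0.863 of the WT mean, but 17 of 21 tubule markers were still negative, with a median of −0.66. The log2 fold changes of col4a6 and col4a5 were then −1.87 and −1.90, with FDR values of 0.0712 and 0.110. The part of tubular cells in the type IV difference was not tested. The stroma rows had a median log2 fold change of 0.39, with 4 of 12 negative and 8 positive. The negative rows were CXCL12 (−0.16), PDGFRA, a receptor of fibroblasts (−0.10), lepr (−0.43) and a PRRX1 row (ENSDARG00000042027, −0.53). The positive rows included PDGFRB (0.48), TCF21 (0.69) and the other PRRX1 row (ENSDARG00000033971, 1.66, FDR = 0.2325). The groups did not overlap for lepr, which was lower in Tg, or for TCF21, which was higher. Without Tg replicate 1, PDGFRB was at −0.12 and the PRRX1 row ENSDARG00000033971 at 0.75.

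For the remaining marker lists, the median log2 fold change was −0.16 for endothelium (summed level 528 to 932 CPM in WT against 649 to 892 CPM in Tg), 0.06 for smooth muscle and pericytes (608 to 703 CPM and 634 to 736 CPM), 0.29 for podocytes (34.6 to 84.3 CPM and 40.1 to 91.1 CPM) and 0.08 for blood cells. It was −0.03 for bone and cartilage, with 2 of 10 rows at 0 in every library and sums of 10.6 to 14.3 CPM in WT compared with 7.06 to 17.0 CPM in Tg, and 0.07 for skeletal muscle, with sums of 4.49 to 11.6 CPM over all libraries. For skin and epithelium it was −1.02, with sums of 91.2 to 166 CPM in WT against 54.6 to 108 CPM in Tg. By the quasi-likelihood test 0 genes of these lists were past the threshold. Of the 59 rows with an adjusted p, DESeq2 called 3 higher (beside 2.95% of all genes) and 4 lower (beside 6.52%). The higher rows were FLI1, SP7 and ptprc, and the lower ones plvapa, NOTCH3, cdh1 and an MPEG1 row. The part of these cells in the collagen values was not tested.

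**Figure D4:**
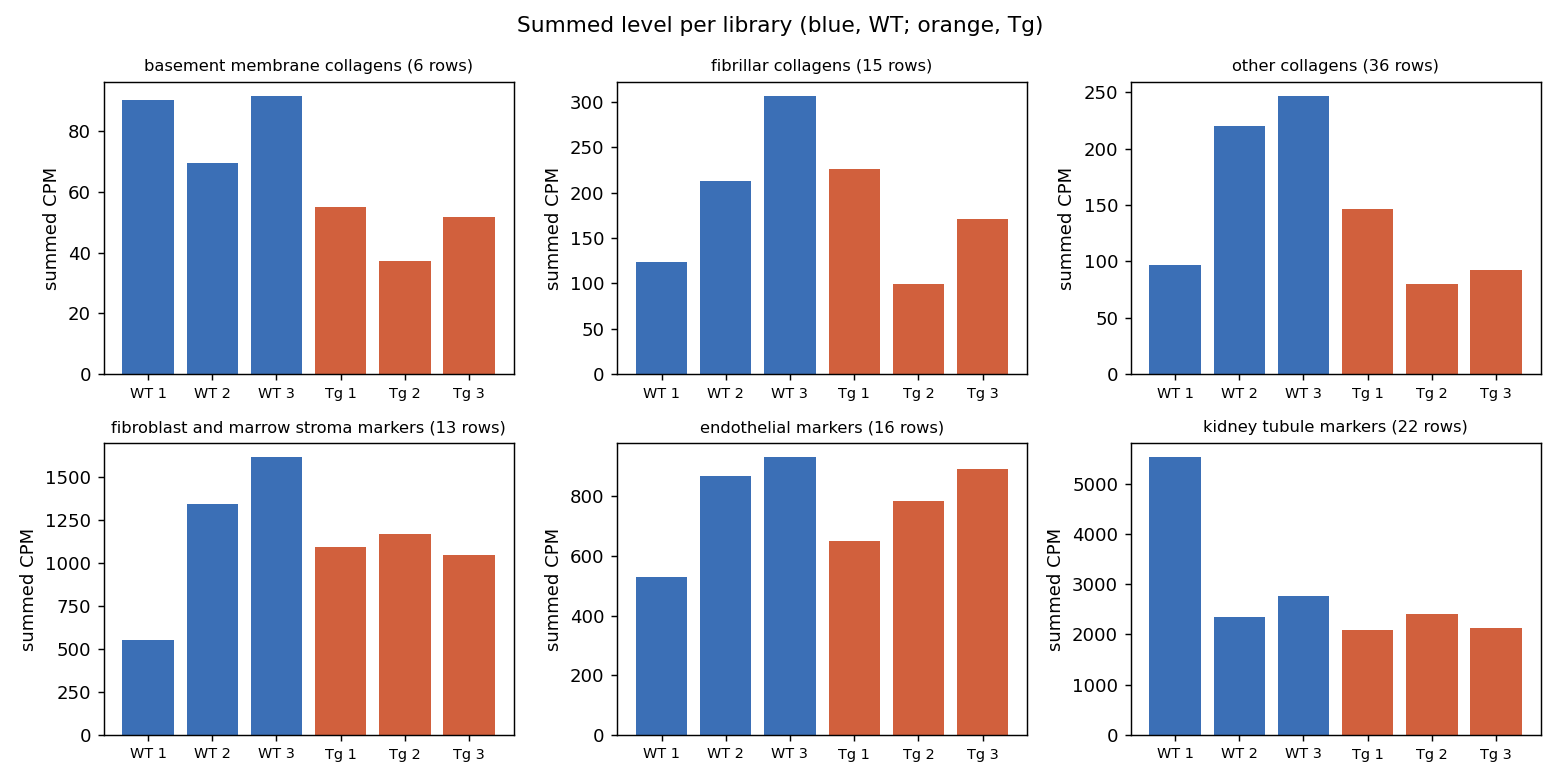
Bars give the summed CPM (y axis, from 0) in each of the 6 libraries for the 3 collagen classes and for the markers of stroma, endothelium and kidney tubule. The basement membrane sums of Tg (37.1 to 54.9 CPM) are all below those of WT (69.7 to 91.6 CPM), the fibrillar sums overlap, and WT replicate 1 stands apart with 5528 CPM of tubule markers and 552 CPM of stroma markers.

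Genes whose products fold, process, bind or sense collagen were counted in 5 lists with 106 rows, of which 91 were tested. By the quasi-likelihood test 0 were higher (0.224% of all genes) and 2 lower (0.373% of all genes) in Tg, both among the genes that work with basement membranes or bind collagen. LAMB1 (ENSDARG00000045524), a laminin chain that lies beside type IV collagen in basement membranes, stood at 33.6, 25.9 and 40.1 CPM in WT compared with 10.7, 7.40 and 8.21 CPM in Tg. It fell by 1.92 on the log2 scale (SE 0.23, FDR = 0.0345), with no overlap. The other LAMB1 row (ENSDARG00000101209) had means of 31.4 and 30.9 CPM, a log2 fold change of −0.03. ITGB1 (ENSDARG00000053232), a gene for the beta chain of collagen-binding integrins, stood at 23.1, 13.1 and 23.9 CPM in WT against 4.81, 5.74 and 5.39 CPM in Tg and fell by 1.91 (SE 0.27, FDR = 0.0448). The other ITGB1 rows, ENSDARG00000071863, ENSDARG00000104484 and ENSDARG00000022689, had log2 fold changes of −0.44 (FDR = 0.191), 0.18 (FDR = 0.446) and −2.62 (FDR = 0.302), and ITGA1, a collagen-binding alpha chain, 0.19. Without WT replicate 1 the FDR of LAMB1 was 0.0583 and that of ITGB1 0.0759, at log2 fold changes of −1.91 and −1.80. Leaving out any other single library except Tg replicate 1 also put LAMB1 above the threshold, with an FDR of at most 0.172, and leaving out any single library did so for ITGB1, with an FDR of at most 0.186.

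By list, the median log2 fold change was −1.41 for the collagen receptors (0 higher and 1 lower of 11), −0.44 for the basement membrane partners (0 and 1 of 16), −0.46 for the matrix partners (0 and 0 of 24), 0.03 for procollagen processing and crosslinking (0 and 0 of 15) and −0.06 for collagen folding and modification (0 and 0 of 25). The 3 genes of highest mean CPM in the folding list, which serve collagen among many other proteins, were close between genotypes. P4HB, a subunit of the prolyl hydroxylase and a general disulphide isomerase, was at 373 to 511 CPM in WT compared with 306 to 542 CPM in Tg, and PPIB and SEC24D had log2 fold changes of −0.13 (SE 0.12) and 0.19 (SE 0.15). Other genes of this list were less close, among them sec23a (0.68, FDR = 0.233). DESeq2 called P3H1 higher (1.05, FDR = 0.151, DESeq2 adjusted p = 0.0414), 1 of 26 rows (3.85%, beside 2.95% of all genes). It called p4ha1a (−1.16, FDR = 0.138, DESeq2 adjusted p = 0.0195) and PLOD1 (−0.77, FDR = 0.123, DESeq2 adjusted p = 0.0291) lower, 2 of 26 (7.69%, beside 6.52%). Of the crosslinking lysyl oxidases, LOXL1 was level (−0.08, SE 0.39), whereas LOXL2 stood at 22.4, 5.45 and 7.06 CPM in WT against 72.4, 58.5 and 19.9 CPM in Tg, with overlap and without passing the test (2.11, SE 0.66, FDR = 0.157). The procollagen C-proteinase enhancer pcolcea had a log2 fold change of −0.25 (SE 0.46). Of the matrix partners, both FN1 rows (fibronectin) and CCN2 had values of −0.10, 0.47 and −0.37 with FDR values of 0.881, 0.429 and 0.581. The copy ccn2b had 0, 0 and 0 counts in WT and 32, 12 and 19 counts in Tg. Its log2 fold change was 7.46 (FDR = 0.119, DESeq2 adjusted p = 0.0174), an estimate that depends on how counts of 0 are handled. The elastin gene elnb, named after its values were seen, had the lowest FDR of that list (−1.82, SE 0.35, FDR = 0.075; DESeq2 adjusted p = 5.90e-05). All 3 Tg libraries lay below all 3 WT libraries for 5 of the 24 (20.8%, beside 14.1% of all genes) and above them for 2 (8.33%, beside 14.0%). LAMA5 and lamc1, laminin chains of many epithelia, had −0.06 (SE 0.39) and −0.54 (SE 0.25). DESeq2 called 2 of 99 partner rows higher (2.02%, beside 2.95% of all genes) and 12 lower (12.1%, beside 6.52%).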

How the data were processed

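Poly(A) RNA was sequenced as paired ends. The authors used Cutadapt 1.9 for trimming, HISAT2 2.0.4 for alignment to GRCz11 and StringTie 1.3.4d for assembly. Their deposited table gives raw, unnormalized counts for every gene in each library. How the counts were made, including the use of strand and the treatment of reads shared by copies, is not stated in the labels or methods. The table has 32057 rows, 6474 of them without counts. Total counts of 50767535 to 64888212 per library and 3 libraries per genotype set the precision, and no molecular identifiers are described.

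Genes were kept by filterByExpr (20123) and scaled by TMM, and Tg was tested against WT with the quasi-likelihood test of edgeR 4.0.16 (R 4.3.3). FDR values are Benjamini-Hochberg adjusted over every gene kept, with a threshold of 0.05. The study's methods also ask for a fold change of at least 2, which the 4 collagens called by DESeq2 all reached. Standard errors are the log2 fold change divided by the root of the F statistic. CPM uses TMM-scaled totals and is not corrected for length, so levels were compared between libraries and not between genes. Alternatives were DESeq2 1.42.0, limma-voom (limma 3.58.1), the edgeR exact test, other scalings, no filter, a replicate block and each library left out.

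Symbols came from a name table with a symbol for 28988 rows. Many carry the human spelling, and 10 collagen rows share a symbol with another row. Collagens were named when past the test, at a mean of at least 5 CPM, among the 4 smallest p-values of their class, or as type I or IV alpha 1 and 2 chains. Partner genes were named when past the test, and otherwise as the 3 of highest mean CPM in their list. The genes sec23a, P3H1, p4ha1a, PLOD1, ccn2b and elnb were added after their values were seen. The members, lists and this rule were chosen with earlier results of these data known. RefSeq (assembly GRCz12tu) gave only which genes are neighbours, matched by symbol. Sequences and gene lengths were not used here.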

Additional observations from a re-analysis of the deposited data

How the results depend on the processing

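The count of collagens lower in Tg was 0 by the quasi-likelihood test, 4 by DESeq2, 2 by the edgeR exact test, and 1 each with scaling by library size only, upper quartile scaling and no filter on low counts. Over all genes these scalings called 81 and 83 lower, and the fit without the filter 104. The collagen count ranged from 0 to 1 as single libraries were left out. Over all genes, 55 were lower without WT replicate 1 and 60 without Tg replicate 1. Only 2 were lower without WT replicate 2, 1 without WT replicate 3 and 0 without Tg replicate 2 or Tg replicate 3. The single call was col4a6 under the scalings and without the filter, col6a4a without WT replicate 1 and col4a5 without Tg replicate 1. The count of collagens higher in Tg was 0 under every alternative, beside 0 to 28 of all genes as single libraries were left out. With the replicate number as a block 0 collagens were higher and 0 lower, beside 0 higher and 1 lower over all genes. The medians were then −0.62 for basement membrane, −0.39 for fibrillar and −1.26 for other collagens. The replicate numbers are not stated to pair the samples. Deviations of same-numbered libraries correlated at −0.087, −0.135 and 0.129, which with 3 libraries per genotype cannot show whether samples were paired.

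The sign of 5 named genes changed when single libraries were left out, over a range of −0.75 to 0.04 for COL1A2, −0.52 to 0.15 for col1a1a, −0.62 to 0.26 for COL5A2, −0.57 to 0.33 for COL5A1 and −0.85 to 1.65 for COL12A1 (ENSDARG00000078322), the cause of which was not tested beyond the loss of that library. Of the other values for named genes, 286 kept their direction and their side of the threshold and 11 newly passed it. The number of libraries and a typical standard error of 0.69 limit what could be detected among the collagens. Over all genes, 75 were lower at the threshold and 1427 by DESeq2, and 45 and 645 were higher.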
